A study of Homo sapiens with 5 samples.

Results

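The cells compared here were the SW480 tumor cells with the highest and the lowest summed level of 8 hypoxia genes on each of 5 plates. SW480 is a human colorectal cancer line from a primary tumor, carried here with a lentiviral GFP label and injected into zebrafish embryos at 2 days post fertilization. Tumors of many xenografts were pooled and dissociated at 1 or 4 days post injection (dpi), and live GFP-positive cells were sorted singly into 384-well plates. Their RNA was read by SORT-seq, which gives each well a barcode and each captured transcript a unique molecular identifier (UMI). The series holds 3 plates at 1 dpi (libraries 6, 7 and 8) and 2 plates at 4 dpi (libraries 10 and 11), all of the same line, label and host, with no uninjected or drug-treated group. Of 1920 wells, 826 passed with more than 2000 genes and under 25% of UMIs on mitochondrial genes, 533 at 1 dpi and 293 at 4 dpi. The score of a cell was its UMIs of CA9, SLC2A1, NDRG1, VEGFA, ADM, BNIP3, PDK1 and ANKRD37 per 10000 human UMIs. The members were thus chosen by their measured UMIs of these 8 genes and by nothing else. Within each plate the upper 25% of cells by this score were called A cells (208 in all; 57, 36, 41, 33 and 41 in libraries 6, 7, 8, 10 and 11), the lower 25% B cells (208, with the same numbers per plate), and 410 cells lay between them.

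Cells short of oxygen stop degrading HIF1A, because the prolyl hydroxylases that mark it for VHL need oxygen. HIF1A then pairs with ARNT on short DNA sites and raises genes for glucose uptake (SLC2A1), glycolysis, a brake on pyruvate entry into mitochondria (PDK1), vessel growth (VEGFA), pH control (CA9) and removal of mitochondria (BNIP3). Several of these genes also respond to growth signals, to nutrient loss or to stress without low oxygen, SLC2A1 among them, and oxygen was not measured in these tumors.

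SLC2A1, the glucose transporter GLUT1, made up most of the score. SORT-seq counts transcript ends, so UMIs carry no length term. SLC2A1 gave 14714 of the score UMIs in all cells, which is 78.5%, and between 77.2% and 80.3% in each plate. VEGFA, the vessel growth factor, gave 1950 UMIs (10.4%), NDRG1, a stress- and hypoxia-induced gene, 720 (3.84%), PDK1 710 (3.79%), ANKRD37 335 (1.79%) and ADM, the vasodilator peptide adrenomedullin, 274 (1.46%). CA9, the surface carbonic anhydrase that is often used as a hypoxia marker, was seen with 39 UMIs in 3.27% of cells, and BNIP3 with 12 UMIs in 1.09% of cells. A UMI of SLC2A1 was found in 95.2% of cells, of VEGFA in 61.5%, of PDK1 in 45.6%, of NDRG1 in 33.3%, of ANKRD37 in 23.2% and of ADM in 17.7%. Of the markers named for the group, SLC2A1, NDRG1, VEGFA and BNIP3, the first therefore weighed most in the order of the cells and BNIP3 was almost absent, so the A cells are described below as cells with a high score led by SLC2A1 rather than as hypoxic cells.

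The score was a continuous range with no gap at either border. Its plate medians were 5.72, 6.68, 6.85, 5.85 and 6.91 UMIs per 10000 in libraries 6, 7, 8, 10 and 11. The lowest A cell of a plate stood at 8.69 to 11.4 and the highest cell below it at 8.62 to 11.4, while the highest B cell stood at 3.19 to 4.11 and the lowest cell above it at 3.20 to 4.11. An A cell held a median of 28 to 52 score UMIs and a B cell a median of 4 to 8. Because the score chose the cells, the next values are a description with no test. The unscaled SLC2A1 level, in CPM (UMIs of the gene over all human UMIs of the sum, without TMM), was 1056, 1008, 1298, 1263 and 1293 in A cells and 154, 158, 164, 131 and 140 in B cells of libraries 6, 7, 8, 10 and 11. The other score genes were less far apart, with VEGFA at 109 against 37.9 unscaled CPM over all A and B cells, NDRG1 at 39.0 against 13.6, PDK1 at 31.3 against 23.0, ANKRD37 at 14.9 against 8.20 and ADM at 14.4 against 7.85.

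**Figure D1:**
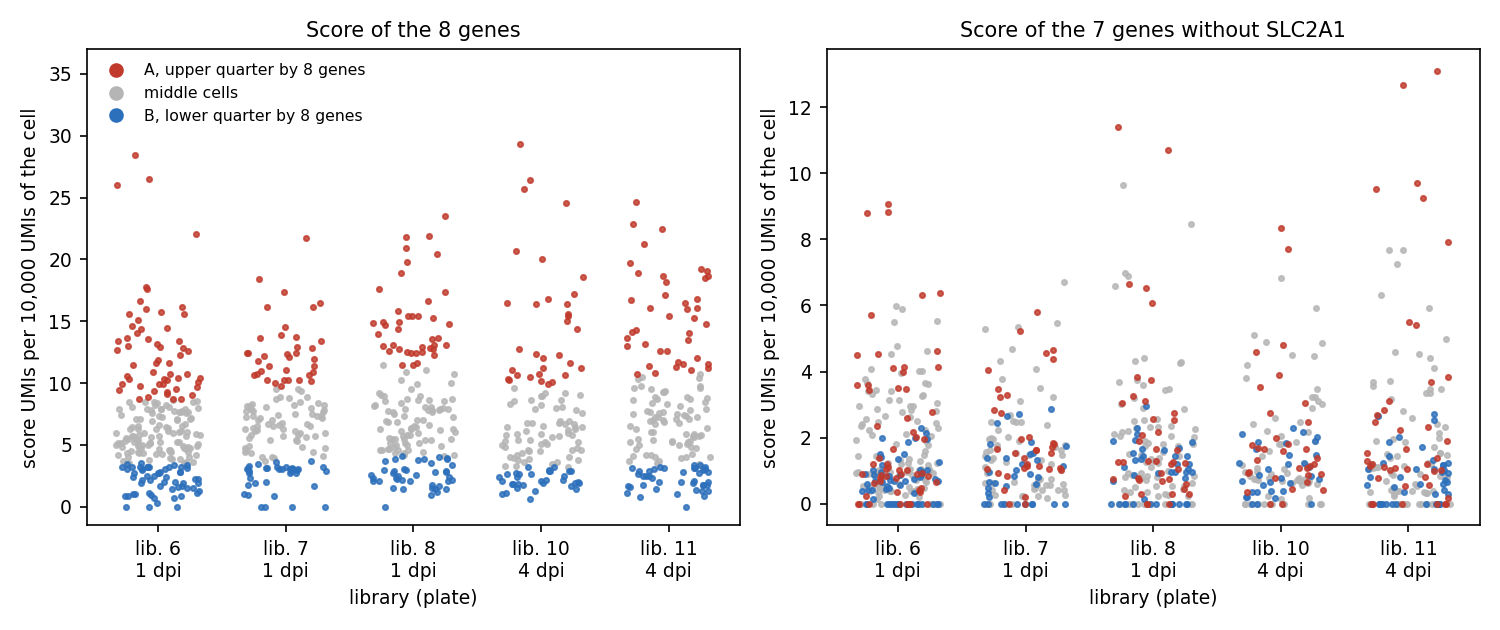
Score of each of the 826 cells by library, in UMIs per 10000 UMIs of the cell, for all 8 genes (left) and for the 7 genes without SLC2A1 (right); each point is 1 cell, colored by its 8-gene group. The A and B cells, apart on the left by construction, are mixed on the right, where 127 cells lie at 0.

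Each plate carried the same 384 well barcodes by design. Human UMIs per library ranged from 4487175 to 7632953 and the median per passing cell from 18823 to 36197, which sets the counting precision of the sums. Colon epithelial markers were abundant, with 31993 UMIs of EPCAM and 52399 of KRT8 over all cells, while PTPRC was seen with 10 UMIs, CD3E and CDH5 with 0, HBB with 3 and COL1A1 with 139. The 6 measured leukocyte markers summed to 6.51 to 28.8 unscaled CPM in A sums and 8.44 to 42.5 in B sums, and the 4 measured stroma and vessel markers to 15.1 to 46.7 and 16.9 to 41.8. A cells had a higher median UMI total than B cells in 4 of 5 plates (mean difference 4538 UMIs, exact two-sided sign-flip permutation p = 0.1875) and a lower mitochondrial share in 4 of 5 plates (mean difference of -1.29 percentage points, exact permutation p = 0.3125). With 5 plates the smallest p this test can give is 0.0625. The labels do not say whether plates came from separate pools of fish. The p-values below for A against B cells measure how far their difference varied between plates. Those for all cells between time points measure the spread of the plates. Either may be technical in part or in full.

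A score gene can be tested in cells that it did not help to choose, so each was tested between cells ranked by the other 7 genes. SLC2A1 went down, not up, in cells that were high in the rest. It was among 1615 genes called lower of 9188 tested in this ranking, where 1660 were called higher. Its level was 446, 496, 574, 327 and 442 CPM (scaled by TMM) in the upper 25% by the other 7 genes of libraries 6, 7, 8, 10 and 11, and 595, 639, 859, 524 and 712 CPM in the lower 25%. Within each of the 5 plates SLC2A1 was lower in the upper cells, although the ranges of the 2 sets overlap between plates. The fitted log2 difference was -0.55 (SE 0.12, adjusted p = 0.0055 by the edgeR quasi-likelihood test with Benjamini-Hochberg adjustment over all genes, plates as a block), and -0.36 (adjusted p = 0.0274) when the sums were scaled by their totals alone. Ranked by a score that included SLC2A1, the other genes showed no detectable difference: NDRG1 at -0.14 (adjusted p = 0.81), VEGFA at -0.19 (0.44), ADM at -0.05 (0.96), PDK1 at 0.07 (0.91) and ANKRD37 at 0.12 (0.88). CA9 and BNIP3 were too low to be tested.

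With SLC2A1 left out of the ranking, an alternative added after seeing the data, NDRG1, VEGFA and PDK1 rose. Such rankings called many genes higher: 1703 of 9280 tested for NDRG1, 621 of 8801 for VEGFA and 1447 of 9117 for PDK1. NDRG1 was at 50.4, 34.6, 48.9, 34.1 and 58.6 CPM in cells high in the other 6 genes and at 20.2, 20.2, 14.6, 18.1 and 12.9 CPM in cells low in them, again in library order. It was higher in each plate and rose by 1.37 on the log2 scale (SE 0.23, edgeR adjusted p = 0.0007). VEGFA stood at 124, 81.2, 75.8, 126 and 172 CPM against 48.9, 49.4, 49.5, 58.4 and 78.6 CPM, which was higher in each plate with a small overlap between plates. VEGFA rose by 1.00 (SE 0.16, edgeR adjusted p = 0.0042) and PDK1 by 0.74 (SE 0.21, edgeR adjusted p = 0.02), both in 5 of 5 plates. ANKRD37, at 0.37 (SE 0.27, edgeR adjusted p = 0.30), did not pass the test although it was higher in 5 of 5 plates. ADM held 125 UMIs against 24 and was higher in 5 of 5 plates. CA9 held 19 against 5 and was higher in 3 of 5, and BNIP3 held 6 against 2 and was higher in 2 of 5. ADM, CA9 and BNIP3 were below the filter for testing.

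**Figure D2:**
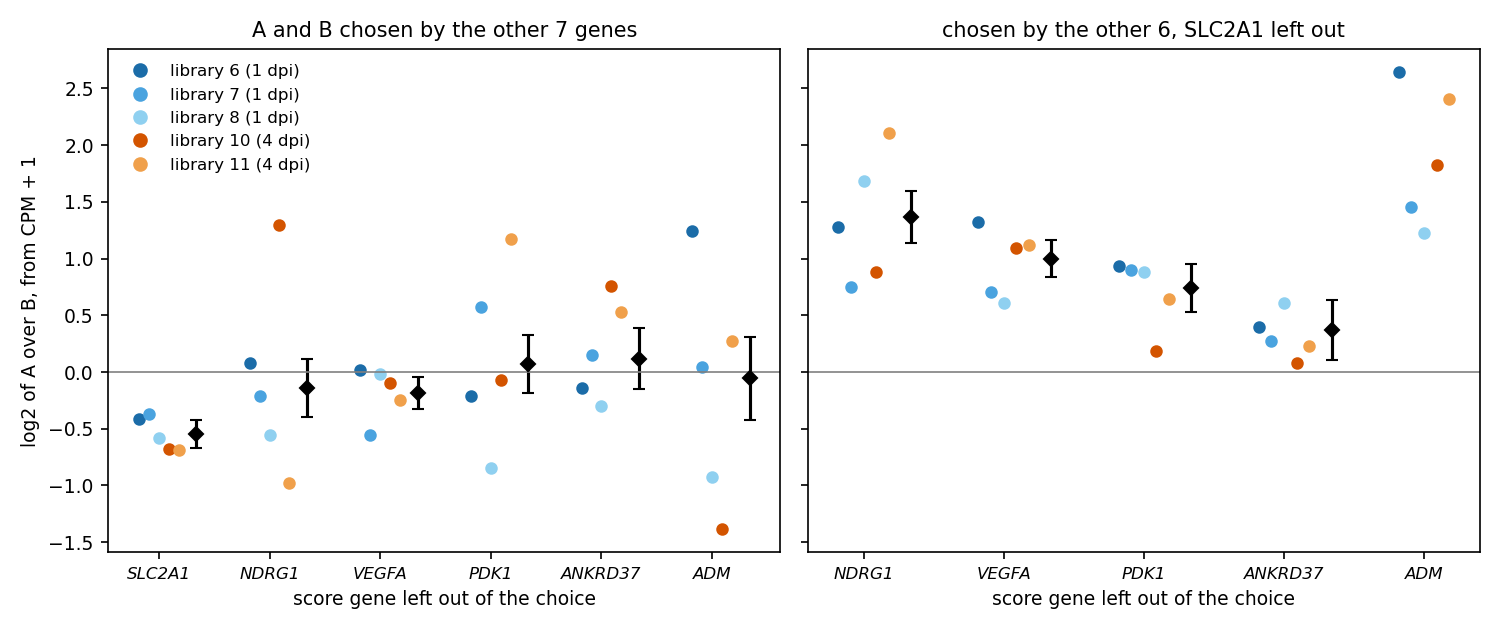
Log2 of the upper over the lower 25% of cells for each score gene, in cells ranked by the other 7 genes (left) and by the other 6 with SLC2A1 left out (right). Colored points are the 5 plates, from CPM + 1, and black diamonds with bars are the fitted value ± SE where tested; SLC2A1 lies below 0 in 5 of 5 plates, and NDRG1, VEGFA and PDK1 lie above 0 in 5 of 5 plates on the right.

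The upstream DNA of these genes is shown because the score assumes that they answer to the same factor. HIF binds a core written ACGTG or GCGTG, searched on both strands in the 250 bases before each start site in the RefSeq promoter table (GRCh38.p14), with each core in capitals here. The run CACGTG reads as a core on both strands and counts as 2, as in ANKRD37 and BNIP3. Of the score genes 6 have an entry, and VEGFA and NDRG1 have none. At least 1 core was in 5 of their 7 windows (71.4%), with 6 in that of BNIP3, 1 in that of CA9 and 1 in that of ADM, which are not printed because these genes added few UMIs. SLC2A1 at chr1:42958869-42959118 (minus strand) holds 0 cores, PDK1 at chr2:172555840-172556089 (plus strand) holds 2 in the second of its 2 windows and 0 in the first, ANKRD37 at chr4:185396591-185396840 (plus strand) holds 3, and EFNA3 at chr1:155078587-155078836 (plus strand), a rise described below, holds 2.
SLC2A1: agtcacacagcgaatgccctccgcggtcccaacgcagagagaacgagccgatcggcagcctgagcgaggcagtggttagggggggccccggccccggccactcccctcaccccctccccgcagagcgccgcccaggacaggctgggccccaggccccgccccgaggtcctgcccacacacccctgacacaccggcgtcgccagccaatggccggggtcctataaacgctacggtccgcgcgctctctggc
PDK1: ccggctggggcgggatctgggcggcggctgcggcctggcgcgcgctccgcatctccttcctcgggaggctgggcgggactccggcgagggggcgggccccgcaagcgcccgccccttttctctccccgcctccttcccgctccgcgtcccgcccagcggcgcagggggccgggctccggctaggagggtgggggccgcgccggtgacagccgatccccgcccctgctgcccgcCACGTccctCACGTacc
ANKRD37: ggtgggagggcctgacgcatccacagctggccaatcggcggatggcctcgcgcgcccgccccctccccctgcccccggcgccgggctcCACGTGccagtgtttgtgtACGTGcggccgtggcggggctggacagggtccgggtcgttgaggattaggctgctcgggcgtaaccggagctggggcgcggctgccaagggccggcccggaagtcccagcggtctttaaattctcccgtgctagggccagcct
EFNA3: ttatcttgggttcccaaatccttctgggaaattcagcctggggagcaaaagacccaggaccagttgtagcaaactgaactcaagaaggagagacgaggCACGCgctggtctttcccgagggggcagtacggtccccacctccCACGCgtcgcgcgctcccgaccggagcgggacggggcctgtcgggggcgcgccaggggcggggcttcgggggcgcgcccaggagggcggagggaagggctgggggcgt
A core is common in such windows: 43.2% of 35116 promoter windows in the table hold at least 1, 57.2% of those of the genes tested, 45% of those of genes called higher in A cells and 60.2% of those called lower. A match is only a run of letters, and HIF sites farther from the start were not searched.

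The 8-gene comparison asked which other genes differ between A and B cells of the same plate. UMIs were summed over the cells of each group in each plate, and the score genes were left out of the test. Of 9348 genes tested, 133 were higher in A cells (1.42%) and 182 lower (1.95%) at an adjusted p under 0.05 by the edgeR quasi-likelihood test, 315 in all (3.37%), and 288 of these went one way in all 5 plates. Scaled by totals alone, without TMM (added after seeing the data), the split was 213 higher and 85 lower. The count depended on the plates: it was 21 without library 6, 110 without library 8 and 156 without library 11. Of 308 called genes that could be tested without library 6, 308 kept their direction. This is no separate support, since both fits share the remaining plates and 288 genes already went one way in all 5. Over all 9348 genes, 849 were higher and 1004 lower at an unadjusted p under 0.05 by edgeR. DESeq2 called 58 higher and 74 lower at an adjusted p under 0.05.

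Glucose and lactate carriers rose with the score. SLC2A3, the high-affinity glucose transporter GLUT3, was at 110, 172, 115, 128 and 113 CPM in A cells and at 58.8, 51.6, 74.8, 15.7 and 36.6 CPM in B cells of libraries 6, 7, 8, 10 and 11. Every A sum lay above every B sum, as for 271 of all genes tested in either direction (2.9%), with the widest gap in library 10, and the fitted rise was 1.43 on the log2 scale (SE 0.23, edgeR adjusted p = 0.0069). SLC2A3 has a near-identical copy, SLC2A14, and reads may have been shared between them. SLC16A3, which exports lactate, was at 59.5, 49.6, 56.2, 83.1 and 67.8 CPM against 19.8, 32.2, 23.6, 28.0 and 41.0 CPM. Its A and B sums did not overlap either, and it rose by 1.14 (SE 0.18, edgeR adjusted p = 0.0066). These were the only 2 of 21 glycolysis genes tested that passed, and the median of the list was 0.01 against 0.00 over all genes. The enzymes between the carriers stood close to 0, with GAPDH at -0.08, LDHA at -0.09, PGK1 at 0.01, PKM at 0.08 and HK2, the inducible hexokinase, at 0.28.

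Few other HIF target genes passed. Of 29 tested, 2 rose and 0 fell by edgeR (unadjusted p under 0.05 in 2 and 4), and the median was 0.13. Over all 9348 genes tested, 849 rose and 1004 fell at an unadjusted p under 0.05. EFNA3, an ephrin ligand known as a HIF target, was at 51.9, 28.7, 33.6, 56.1 and 53 CPM in A cells and at 15.9, 6.77, 13.8, 24.7 and 20.5 CPM in B cells, with no overlap between the sums. It rose by 1.5 (SE 0.19, edgeR adjusted p = 0.0023). PDGFB, a platelet-derived growth factor subunit, rose by 1.34 (SE 0.28, edgeR adjusted p = 0.0207). Well-known targets such as EGLN1 (0.20), P4HA1 (-0.21), BNIP3L (0.10), AK4 (0.32), DDIT4 (0.41) and HILPDA (0.16) did not pass. Of 10 genes that sense oxygen or carry the HIF response, 0 passed in either direction by edgeR or by DESeq2, and 1 fell at an unadjusted p under 0.05; HIF1A itself was at -0.47.

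Transcription factors and surface signals led the remaining rises. FOXQ1, a forkhead factor, was at 81.7, 65.2, 78.1, 114 and 86.9 CPM in A cells and at 25.1, 22.0, 35.4, 37.0 and 30.2 CPM in B cells. All A sums exceeded all B sums, the rise was 1.51 (SE 0.15, edgeR adjusted p = 0.0005), and it was 1.46 (adjusted p = 0.011) without library 6. EFNB1, a further ephrin, rose by 1.31 (SE 0.15, edgeR adjusted p = 0.0012), and EDAR, the ectodysplasin receptor, by 1.21 (SE 0.17, edgeR adjusted p = 0.0035). L1CAM, an adhesion molecule, was at 107, 97.2, 105, 147 and 121 CPM against 61.4, 56.7, 66.9, 29.1 and 52.8 CPM, again without overlap, and rose by 1.09 (SE 0.19, edgeR adjusted p = 0.0108). EGR3, an immediate-early factor, was at 25.4, 35.9, 30.7, 31.1 and 31.8 CPM against 5.29, 10.2, 7.88, 25.8 and 7.54 CPM. Library 10 was the exception, with a B sum near the A sums, and the fitted rise was 1.58 (SE 0.29, edgeR adjusted p = 0.0126). The other 5 of the 12 largest rises were IFITM10 (1.37), FSTL3, an activin inhibitor (1.32), AHNAK2 (1.32), RHBDF2, which escorts the protease ADAM17 (1.20), and SLC16A3. Without library 6, FOXQ1, EFNA3, SLC2A3, EFNB1 and EDAR remained called among these 12.

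**Figure D3:**
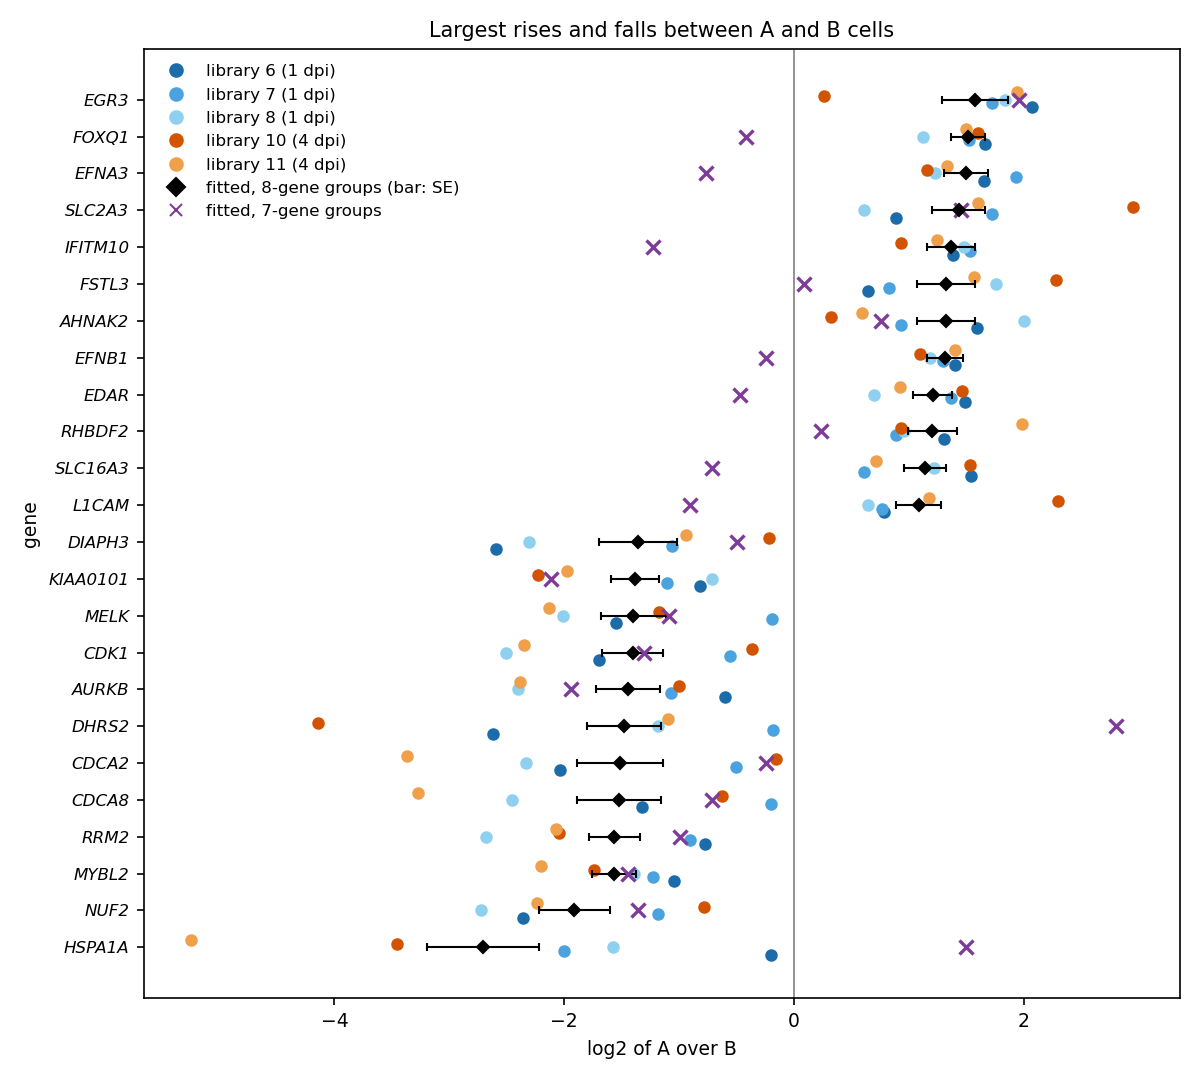
Log2 of A over B for the 12 largest rises and 12 largest falls; colored points are the 5 plates (from CPM + 1), black diamonds with bars the fitted value ± SE in the 8-gene groups, and crosses the fitted value in groups ranked by 7 genes without SLC2A1. Crosses lie on the opposite side of 0 for 9 genes, among them FOXQ1 at -0.41, L1CAM at -0.90 and HSPA1A at 1.49.

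Wnt and Notch genes and epithelial keratins were higher in A cells in part. Of 16 Wnt targets, 3 rose and 0 fell by edgeR (unadjusted p under 0.05 in 9 and 1), with a median of 0.45. They were NOTUM, a secreted Wnt deacylase (0.68, SE 0.11, edgeR adjusted p = 0.0066), and APCDD1 (0.84) and ZNRF3 (0.67), both of them Wnt inhibitors. NOTUM was at 431, 309, 309, 687 and 506 CPM in A cells and at 231, 150, 255, 458 and 337 CPM in B cells, so it was higher in each plate and higher at 4 dpi than at 1 dpi in both groups. Of 11 Notch genes, 2 rose, JAG2, a ligand (0.73), and HES5, a target (1.47), with a median of 0.54; HES5 was near absent at 4 dpi (1.04 and 8.48 CPM in A sums). Of 12 epithelial genes, KRT19 (0.67), KRT8 (0.43) and KLF5 (0.36) rose, with EPCAM at 0.01 and CDH1 at -0.01. CCND1, the G1 cyclin and a Wnt target outside these lists, chosen after its values were seen, was at 305, 346, 364, 328 and 488 CPM against 198, 188, 223, 147 and 175 CPM and rose by 0.96 (SE 0.12, edgeR adjusted p = 0.0021). The study itself named 10 tested Wnt, Notch and secreted-factor genes from these samples, of which HES5, APCDD1 and NOTUM rose; that list is no independent evidence of direction. Without library 6, 0 of the Wnt, Notch and epithelial genes passed by edgeR, and the medians were 0.40, 0.59 and 0.38.

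Genes of mitosis were lower in A cells. Of 39 G2 and mitosis genes tested, 15 fell and 0 rose by edgeR, 34 fell and 0 rose at an unadjusted p under 0.05, and DESeq2 called 15 lower and 0 higher; the median was -1.01. CDK1, the mitotic kinase, was at 29.2, 41.1, 14.6, 143 and 38.1 CPM in A cells and at 97.1, 60.9, 87.6, 185 and 198 CPM in B cells. It was lower in A cells of each plate, least so in library 10, and fell by 1.40 on the log2 scale (SE 0.27, edgeR adjusted p = 0.0155). MYBL2, a factor that drives mitotic genes, was at 23.8, 18.9, 8.03, 33.2 and 25.4 CPM against 50.2, 45.7, 22.6, 113 and 121 CPM. Its gap was wider at 4 dpi than at 1 dpi in these plates, though the difference between time points did not pass (edgeR adjusted p = 0.38), and the overall change was -1.57 (SE 0.19, edgeR adjusted p = 0.0015). RRM2, a subunit of ribonucleotide reductase, fell by 1.56 (SE 0.22, edgeR adjusted p = 0.0039), AURKB, the kinase of the chromosomal passenger complex, by 1.44, NUF2, a kinetochore protein, by 1.91, and KIAA0101, the PCNA-associated factor PCLAF, by 1.38. Of 35 S phase genes, 6 fell and 0 rose, with a median of -0.36. Per cell, the G2 and mitosis genes summed to a median of 5.15, 7.68, 4.81, 6.48 and 6.94 UMIs per 10000 in A cells and 13.5, 12.4, 7.72, 15.2 and 16 in B cells, which was lower in 5 of 5 plates (exact permutation p = 0.0625, the smallest possible). Without library 6, 1 of 41 genes of the mitosis list passed and the median was -1.02; of the 12 largest falls, HSPA1A, MYBL2, RRM2 and KIAA0101 remained called.

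Many genes of mitosis share the cell cycle homology region, written TTTGAA, bound by the complexes that hold MYBL2. The second start window of CDK1, at chr10:60778228-60778477 (plus strand, GRCh38.p14, RefSeq), holds 2 copies, in capitals, and is shown as the example that the fall of CDK1 bears on.
CDK1: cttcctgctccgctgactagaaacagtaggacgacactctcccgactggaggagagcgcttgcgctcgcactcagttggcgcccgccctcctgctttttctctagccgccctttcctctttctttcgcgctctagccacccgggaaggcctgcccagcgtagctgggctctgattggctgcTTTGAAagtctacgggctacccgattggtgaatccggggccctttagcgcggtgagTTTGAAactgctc
Searched on both strands in the same way, the motif was in 15.6% of windows of genes called lower in A cells, 8.28% of those called higher, 9.01% of those of all genes tested and 13.3% of all windows in the table.

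Heat shock genes were also lower in A cells. Of 19 tested, 5 fell and 0 rose by edgeR (unadjusted p under 0.05 in 11 and 0, DESeq2 in 3 and 0), with a median of -0.28. HSPA1A, the stress-inducible chaperone HSP70, was at 10.8, 3.26, 10.2, 8.31 and 5.30 CPM in A cells and at 12.6, 16.1, 32.5, 101 and 238 CPM in B cells. The A sums stayed below the B sums in all plates, barely in library 6 and most in library 11, and the fall was 2.71 (SE 0.49, edgeR adjusted p = 0.012). HSPA1B, a near-identical copy whose reads cannot be told from those of HSPA1A with certainty, was at -1.44, BAG3, a co-chaperone, at -1.07, DNAJA1 at -0.64 and HSPB1 at -0.41, and these 4 fell as well. Without library 6, HSPA1A alone of the 19 passed (-3.38, edgeR adjusted p = 0.0113).

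Small shifts ran through the ribosomal and respiratory genes. Of 74 ribosomal protein genes, 13 fell and 0 rose (median -0.23), and 65 fell at an unadjusted p under 0.05; of 76 nuclear-encoded respiratory chain genes, 9 fell and 0 rose (median -0.20), COX7B at -0.54 and NDUFA1 at -0.44 among them. These calls depended on the scaling: by totals alone 2 ribosomal and 2 respiratory genes fell, with medians of -0.15 and -0.12, and 0 of either list passed without library 6. Of 15 mitochondrially encoded genes, MT-RNR2 (-0.33) passed alone by edgeR, and DESeq2 called 0. At an unadjusted p under 0.05 by edgeR, 11 of the 15 fell and 0 rose. Of 25 genes of the ATF4 response to amino acid shortage, SLC7A5 (0.79), CHAC1 (0.88), ATF3 (0.57) and SLC1A5 (0.53) rose, and of 34 immediate-early genes EGR3, IER3 (0.99), MYC (0.66) and ATF3 rose; without library 6, 0 genes of either list passed by edgeR, with medians of 0.31 and 0.17. SLC7A5 and SLC1A5 are amino acid carriers, and CHAC1 degrades glutathione.

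The comparison was also made by time point. Both time points were estimated in 1 fit with a shared estimate of the spread, so their calls are not independent. A and B cells differed in 345 genes at 1 dpi (3.69%), 163 higher (1.74%) and 182 lower (1.95%). At 4 dpi they differed in 254 genes (2.72%), 123 higher (1.32%) and 131 lower (1.4%). FOXQ1, SLC2A3, EFNA3 and EFNB1 passed at both, with FOXQ1 at 1.47 and 1.58. Without library 6 the count at 1 dpi was 5, without library 7 111 and without library 8 48, and without libraries 10 or 11 it was 568 or 571. At 4 dpi the count was 129 without library 6 and 102 without library 10. The mitosis list had a median of -1.17 at 1 dpi (10 of 39 fell) and -0.87 at 4 dpi (4 fell), with 0 of its members called in the difference. The Wnt list had a median of 0.61 at 1 dpi (7 of 16 rose) and 0.15 at 4 dpi (0 rose, and TCF7, a Wnt effector, fell by 1.08), and the ATF4 list -0.02 (2 of 25 rose) and 0.68 (9 rose), while the difference itself passed for 0 Wnt genes and 1 ATF4 gene, ALDH1L2. Those zeros are edgeR counts, and for all genes together 1094 differences had an unadjusted p under 0.05.

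The difference between time points itself passed for 67 genes (0.717%), 46 with a higher and 21 with a lower A to B ratio at 4 dpi. Of these, 57 had opposite signs at 1 and 4 dpi. CXCL3, a neutrophil-attracting chemokine, was at 14.1, 30.7 and 17.5 CPM in A cells of libraries 6, 7 and 8 and at 10.6, 11.0 and 13.8 CPM in B cells, then at 15.6 and 8.48 CPM in A cells of libraries 10 and 11 and at 45.9 and 26.9 CPM in B cells. A cells were the higher ones in each plate at 1 dpi and the lower ones in both plates at 4 dpi, and the difference was -2.36 on the log2 scale (SE 0.50, edgeR adjusted p = 0.045). HSPA1A was lower in A cells at both times, by a fitted 1.24 at 1 dpi and 4.55 at 4 dpi (difference of -3.31, SE 0.63, edgeR adjusted p = 0.0314). KLF2, a factor with immediate-early kinetics, was at 32.5, 47.6 and 29.2 CPM against 12.6, 18.6 and 12.8 CPM at 1 dpi, and at 36.3 and 25.4 CPM against 79.6 and 23.7 CPM at 4 dpi. Its reversal rested on library 10, since library 11 showed little difference (edgeR adjusted p = 0.045). AKAP12, a scaffold of protein kinase A, likewise rested on library 10, where A cells had 105 CPM and B cells 10.1, against 2.12 and 4.31 in library 11. FLNC, a filamin, was at 10.4 and 14.8 CPM in A cells and listed at 0 in B cells of libraries 10 and 11, so its fitted change depends on the prior count and is no bound. The count of 67 became 4 without library 6, 13 without library 7, 27 without library 8 and 6 without library 10.

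**Figure D4:**
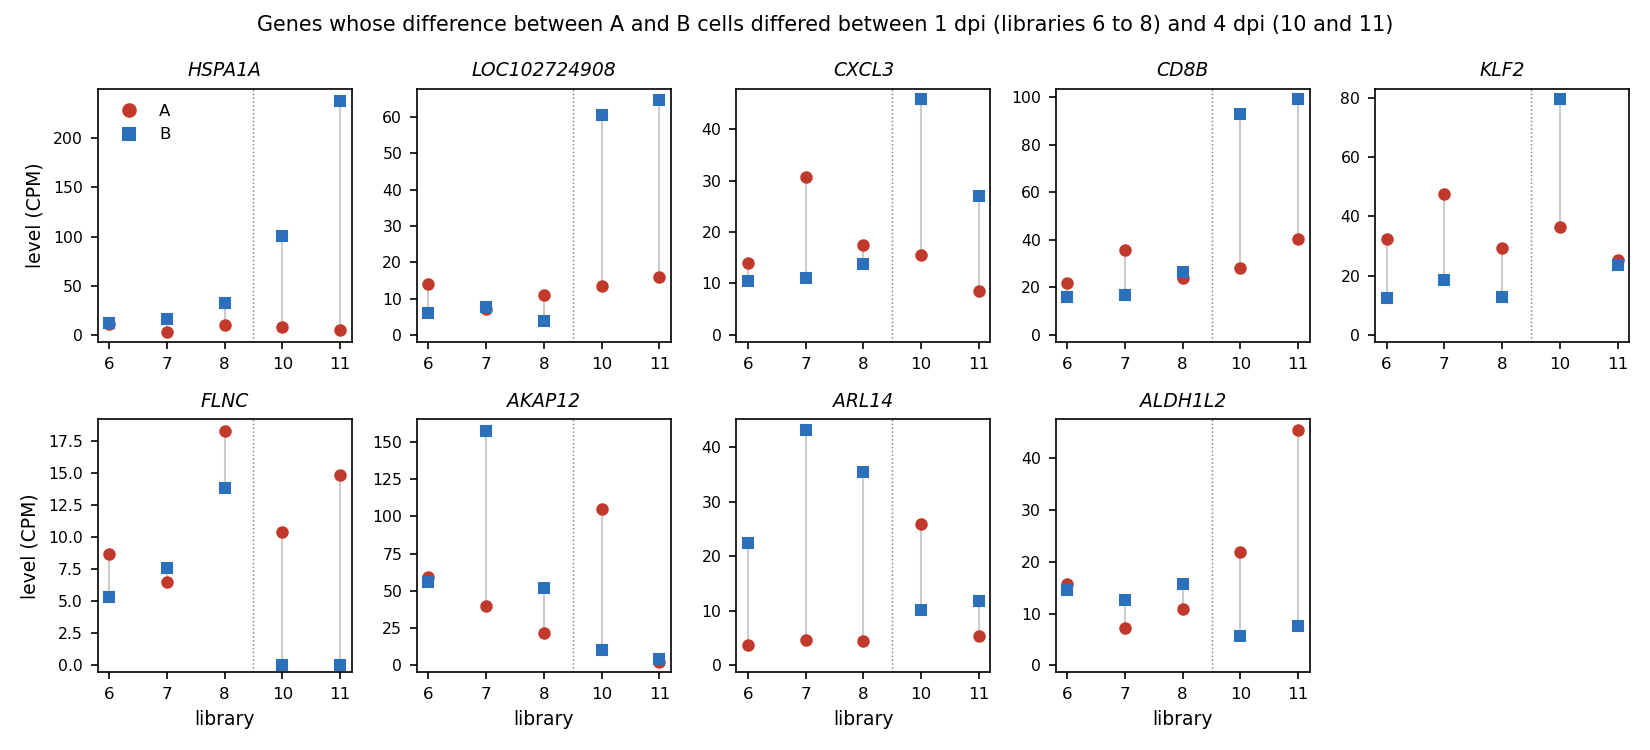
Level in CPM of 9 of the 10 genes with the most negative and most positive differences between time points, 5 of them negative, for A sums (circles) and B sums (squares) of libraries 6, 7 and 8 (1 dpi) and 10 and 11 (4 dpi). CXCL3 changes sides in all plates, while AKAP12 and KLF2 do so by library 10.

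The level of the score genes themselves was compared between time points over all cells of a plate, which the ranking within plates did not use. SLC2A1 was at 588 ± 70.5 CPM at 1 dpi (SD, n = 3) and 584 ± 42.7 CPM at 4 dpi (SD, n = 2), a log2 difference of -0.01 (SE 0.10, edgeR adjusted p = 0.96). VEGFA was at 74.5 ± 6.17 and 81.5 ± 1.22 CPM (log2 difference 0.13, SE 0.11, edgeR adjusted p = 0.43). ANKRD37 fell, from 14.9, 19.1 and 12.6 CPM in libraries 6, 7 and 8 to 6.78 and 9.09 CPM in libraries 10 and 11, by 0.97 on the log2 scale (SE 0.25, edgeR adjusted p = 0.0098), against 27.6% of 12610 genes called between the time points; without library 10 it was at -0.77 (adjusted p = 0.0840). NDRG1 (-0.25), ADM (0.46) and PDK1 (0.05) did not pass, and CA9 and BNIP3 were too low to test.

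Since SLC2A1 and the other score genes moved apart, the comparison was also made between cells ranked by the 7 genes without SLC2A1. This ranking was first listed as an alternative and was made a comparison of its own after seeing the data. The 2 rankings share cells: 69 of the 208 A cells (33.2%) were also in the upper 25% by 7 genes, and 36 (17.3%) were in the lower 25%. Cells at 0 for all 7 genes numbered 127. An upper cell held a median of 12, 9, 8, 8 and 8 UMIs of the 7 genes in libraries 6, 7, 8, 10 and 11. A lower cell held a median of 0, 1, 0, 0 and 0, so this ranking lay near the detection floor. The upper cells had a lower mitochondrial share in 5 of 5 plates, with medians of 11.3% against 14.2%, 10.8% against 12.7%, 10.2% against 11.0%, 7.26% against 17.5% and 7.95% against 15.3%. Of 9187 genes tested, 3274 passed (35.6%), 1660 higher (18.1%) and 1614 lower (17.6%), and between 2285 and 2837 passed when a library was left out. TMM moved all genes by a mean of 0.19 on the log2 scale between these sums (0.083 in the 8-gene groups), and by totals alone the split was 2364 higher and 1034 lower. With cells ranked within 3 depth classes of each plate, 3435 genes passed (1756 higher and 1679 lower), and the 24 named genes of this ranking kept direction and call. With every cell thinned to 5000 UMIs, 301 of 6183 genes passed, 11 shallower cells being left out. Ties at this depth made the groups larger, with 117, 66, 82, 58 and 74 upper and 109, 74, 78, 72 and 85 lower cells. These took in all thinned cells, so this fit did not compare the upper with the lower 25%. The part of the mitochondrial share in these calls was not tested.

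Stress and growth-arrest genes were far higher in cells high in the 7 genes. SESN2, a stress-induced brake on mTORC1 signaling, was at 217, 235, 295, 193 and 205 CPM in the upper cells and at 31.5, 30.1, 44.9, 23.0 and 14.9 CPM in the lower cells. The sums lay far apart in all plates, and the rise was 2.99 on the log2 scale (SE 0.17, edgeR adjusted p = 3.4e-06). It belongs to the 25 ATF4-response genes tested, of which 22 rose and 1 fell (median 1.14). DDIT4, a HIF and stress target that also restrains mTORC1, was at 221, 303, 294, 164 and 177 CPM against 54.0, 40.1, 56.6, 13.3 and 27.3 CPM and rose by 2.63. CDKN1A, the cyclin-dependent kinase inhibitor p21, was at 40.4, 69.7, 74.3, 94.1 and 63.5 CPM against 5.94, 15, 13.5, 10.9 and 8.69 CPM and rose by 2.64. GDF15, a secreted stress signal, rose by 2.64, TRIB3 by 2.42, DDIT3 by 2.18 and CHAC1 by 2.37, all of them ATF4-linked. Of 33 immediate-early genes, 29 rose and 0 fell (median 1.30), and of 21 unfolded-protein-response genes 12 rose and 0 fell (median 0.66), against a median of 0.03 over all genes. SLC1A5, an amino acid carrier that rose in the A cells, was lower here, at -0.66.

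Many HIF targets outside the score rose in these cells. Of 29 tested, 14 rose and 4 fell, with a median of 0.78. Over all genes 18.1% rose and 17.6% fell, so the falls were no more frequent than among all genes. DDIT4 (2.63), CITED2, which competes with HIF for its coactivators (2.12), STC2 (1.92) and the demethylase KDM3A (1.68) were among the rises. So were BHLHE40 (1.21), P4HA1 (0.83) and BNIP3L (0.78). AK4 (-0.88), EFNA3 (-0.76), FAM162A (-0.60) and RAB20 (-0.56) fell. Glycolysis went the other way, with 4 of 21 genes higher and 9 lower and a median of -0.61. Its 4 rises were near the share over all genes. LDHA, which makes lactate, was at 767, 809, 762, 368 and 459 CPM in the upper cells and at 1010, 1242, 979, 1453 and 1249 CPM in the lower cells, lower in each plate (-0.95, SE 0.22). GPI (-1.09), TPI1 (-0.97), GAPDH (-0.83), ENO1 (-0.74) and SLC16A3 (-0.72) fell too, while SLC2A3 (1.45), PFKFB3 (1.33), HK2 (0.89) and ENO2 (0.77) rose. SLC2A3 was thus called higher under both rankings, and SLC16A3 and EFNA3 were called in opposite directions.

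Growth machinery was lower in the same cells. Of 35 S phase genes 29 fell and 0 rose (median -1.11), and of 38 mitosis genes 24 fell and 0 rose (median -1.15). Of 76 respiratory chain genes 59 fell, of 15 mitochondrially encoded genes 13 fell, and of 74 ribosomal protein genes 64 fell, each with 0 rises and with medians of -0.66, -0.88 and -0.56. The mitochondrial share given above moved with these groups. In cells thinned to 5000 UMIs, 6 of 75 respiratory, 4 of 15 mitochondrial and 2 of 74 ribosomal genes fell, with medians of -0.26, -0.34 and -0.17. There 16 of 30 immediate-early and 13 of 24 ATF4 genes still rose. Over all 6183 genes of that fit, 141 fell and 160 rose, so the ribosomal falls were near the share of all genes. MYB, a proliferation factor, was at -2.60, UHRF1, which maintains DNA methylation, at -2.51 and BIRC5, survivin, at -2.17. The Wnt list ran opposite to the 8-gene comparison, with 8 of 16 lower, 0 higher and a median of -0.62, ASCL2, a stem cell factor of the crypt, at -1.82 and APCDD1 at -1.73. The heat shock list had 5 rises and 5 falls: HSPA1A (1.49), HSPA1B (2.26) and BAG3 (1.46) rose, whereas HSPA8 (-0.96) and HSPE1 (-1.12) fell.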

How the data were processed

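The deposited tables hold UMI counts per gene and well, which the authors made from reads aligned with BWA to hg38. The aligner's version and the transcript set were not given in the sources used here. Cells were wells with over 2000 genes and under 25% mitochondrial UMIs, and 15028 human genes were kept, without ERCC spikes. The members of the score, the groups and the 28 gene lists were chosen with earlier results of these data known. UMIs of A and of B cells were summed per plate and tested with the edgeR 4.0.16 quasi-likelihood test in R 4.3.3 (filterByExpr, TMM, two-sided, plate as a block, Benjamini-Hochberg over all genes tested, threshold 0.05); both time points shared 1 estimate of the spread. A and B cells of a library come from the same plate, which is where the pairing comes from. Named were, besides list members with the most extreme changes and the genes the study names, the 12 largest rises and falls with at least 20 CPM and 1 direction in 5 plates, and 5 each for the difference between time points, of which 1 gene is not reported here. Each sorted well was taken as 1 cell, and no doublet caller was run. DESeq2 1.42.0, other filters, groupings, depths and left-out plates were alternatives. The edgeR script was tested on simulated data.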

Additional observations from a re-analysis of the deposited data

Results flagged for a closer look

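EGR3 differed less between A and B cells in library 10 (0.26 on the log2 scale) than in the other 4 plates (1.73 to 2.07), a gap that Dixon's test marks. In the ranking without SLC2A1, KIAA0101 stood at -2.36 in library 10 against -2.05 to -1.93 in the others, and CDCA7, a MYC and E2F target, at -4.14 in library 11 against -2.06 to -1.31. Chance marks about 1 in 20 such groups, and 3 of 55 were marked.

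The A to B difference itself differed between 1 and 4 dpi for 67 genes by the edgeR contrast of the 2 time points. Below 0 the 5 most extreme differences, in log2 units as 4 dpi minus 1 dpi, were those of HSPA1A (-3.31, from -1.24 to -4.55), LOC102724908 (-2.94, from 0.86 to -2.08), the chemokine gene CXCL3 (-2.36, from 0.77 to -1.59), CD8B (-1.96, from 0.47 to -1.49) and KLF2 (-1.95, from 1.31 to -0.64). Above 0, 4 of the 5 were those of FLNC (6.63, fitted against B sums listed at 0 at 4 dpi, so that its size depends on the prior count), AKAP12 (3.77, from -1.03 to 2.74), ARL14 (3.34, from -2.93 to 0.42) and ALDH1L2, a mitochondrial folate enzyme (2.66, from -0.33 to 2.33). Their adjusted p ran from 0.0235 to 0.0450, with 3 plates at 1 dpi and 2 at 4 dpi.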

How the results depend on the processing

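The count of 315 genes in the 8-gene comparison was 132 by DESeq2, 528 with no filter on low counts, 206 with a mitochondrial maximum of 15%, 80 in cells thinned to 5000 UMIs, 721 with groups of 1 in 3 cells, 498 with mitochondrial UMIs left out of totals, 23 and 141 in libraries 6, 7 and 10 and in libraries 8 and 11, which were sequenced on separate flow cells, 3274 without SLC2A1 in the score and, added after seeing the data, 1061 by SLC2A1 alone. Leaving out each plate gave 21 to 374. The plate was the replicate block: without the replicate block 14 genes passed, and 39 instead of 67 for the difference between time points. At 1 dpi, 345 became 88 by DESeq2, 713 with no filter, 118 at 15%, 66 thinned, 588 within 3 depth classes, 774 with 1 in 3 cells, 2615 without SLC2A1, 973 by SLC2A1 alone and 5 to 571 with a plate left out. At 4 dpi, 254 became 94, 551, 34 (thinned), 103 (within 2 cycling classes), 425 (1 in 3 cells), 4084 (without SLC2A1), 420 (without mitochondrial UMIs in totals), 698 (SLC2A1 alone) and 102 to 287 with a plate left out, the first 2 by DESeq2 and with no filter. The 67 differences became 29 by DESeq2, 221 with no filter, 14 at 15%, 20 within cycling classes, 113 with 1 in 3 cells, 1095 without SLC2A1, 4 to 86 with a plate left out, and 0 thinned, where edgeR had 305 of 4110 at an unadjusted p under 0.05. The 3274 of 9187 genes of the 7-gene ranking became 301 of 6183 when thinned, in larger groups that took in all thinned cells, and 3435 within depth classes.

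Without SLC2A1 in the score, signs turned for FOXQ1 (-0.41), EFNA3 (-0.76), IFITM10 (-1.23), EFNB1 (-0.24), EDAR (-0.47), SLC16A3 (-0.72), L1CAM (-0.90), HSPA1A (1.49) and DHRS2 (2.80), and in the difference for HSPA1A (1.45), KLF2 (1.47) and FLNC (-0.53). With the other 6 genes choosing, NDRG1 (1.37) and VEGFA (1.00) turned and PDK1 (0.74) passed. ANKRD37 between time points was -1.27 thinned (adjusted p = 0.0915 by edgeR) and lost its call without library 10; plates left out gave -1.20 to -0.77. Over all settings, the score without SLC2A1 included, the named genes of the 8-gene comparison kept direction and call in 349 cases and lost the call in 106. For the time difference these were 63 and 75, and for the 7-gene ranking 200 and 6. The cause of these changes was not tested. Depth per cell limits the score itself, since a B cell held a median of 4 to 8 score UMIs, and genes under the filter could not be tested. The 7-gene ranking is limited more, since its lower cells held a median of 0 or 1 UMIs of the 7 genes.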

Other observations

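Several groups of genes did not enter the account above. In the 8-gene comparison, 0 of 18 citric acid cycle genes passed the edgeR test in either direction (1 higher and 1 lower at an unadjusted p under 0.05, 0 by DESeq2), and 0 of 21 unfolded-protein-response genes passed (7 higher and 0 lower unadjusted, 0 by DESeq2), with medians of -0.02 and 0.22. Interferon and antigen-presentation genes fell in 3 of 13 cases, OAS3 (-1.46), an RNA sensor, HLA-B (-0.64) and B2M (-0.44), the class I heavy and light chains, with 0 rises and a list median of -0.08; DESeq2 called 0 of them, and 0 of 12 passed by edgeR without library 6. The p53 targets (17 tested), the NRF2 targets (17) and the cholesterol and fatty acid genes (27) each had 1 fall and 0 rises, and the autophagy (11), EMT (12), metallothionein (6), chemokine (5) and secretory (3) lists had 0 of either by edgeR and by DESeq2.

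In the ranking by 7 genes without SLC2A1, 8 of 17 p53 targets rose and 0 fell (median 0.55), 7 of 12 EMT genes rose and 1 fell (median 0.95), and 6 of 11 autophagy genes rose and 0 fell (median 0.71). The largest rises there, besides those already given, were CREB5 (3.07), a bZIP factor, BHLHE41 (3.02), a repressor of the clock, DHRS2 (2.80), CDKN2B (2.78), the cyclin-dependent kinase inhibitor p15, and AKAP12 (2.77). DHRS2 had gone the other way in the A cells (-1.48), where its level was 21.1 against 135 CPM (A against B) in library 6 and 5.19 against 109 CPM in library 10, and where its call was lost without library 6 (-1.23, edgeR adjusted p = 0.15).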
